A study of Mus musculus with 30 samples.

Results

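Histone methylation and Polycomb genes were followed through the chemical reprogramming of mouse embryonic fibroblasts (MEFs) into chemically induced pluripotent stem cells (CiPSCs). The set is a given list of 47 gene names, matched by name from the expression table, and all 47 were present, each under 1 entry, among 35275 entries. Of the 30 samples of the study, 14 are bulk RNA-seq libraries of total RNA, with 1 library for each group, and they are the ones described; the 12 single-cell and 4 bisulfite samples were not analysed here. Values are FPKM (fragments per kilobase of gene model, scaled to the library's total), made by the authors.

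MEFs came from E13.5 embryos of a cross of C57BL/6J-Tg(GOFGFP)11Imeg/Rbrc with ICR, and that cross is the labelled strain of every library other than the ESC line and the Zscan4c reporter pair. XEN-like cells, which resemble extraembryonic endoderm and form the first intermediate, are a purified line kept in the stage I medium, VC6TFAE with 20 ng/ml bFGF. Published forms of this cocktail hold valproic acid, a histone deacetylase inhibitor, tranylcypromine, an inhibitor of the demethylase KDM1A, and a DOT1L inhibitor, so some of the proteins encoded by the set are drug targets in stage I. During reprogramming the cells were replated on day 12, entered stage II medium on day 16 and stage III medium on day 28. Stage II day 12 is represented by cells in N2B27-SII medium, which were grown on mitomycin-treated MEF feeders, by cells in FBS/KSR-SII medium, and by a fraction sorted as OG+ PDGFRAlow/- PECAM-. Stage III is represented by day 4 cells without and with Opt. VPA treatment and by cells of days 6, 15 and 21, for which the labels do not say which stage II medium preceded them. The CiPSC library is 1 line. The ESC line came from an E3.5 embryo of ICR x ICR, and both CiPSCs and ESCs were kept on MEF feeders in a medium of LIF (10 ng/ml), the MEK inhibitor PD0325901 (1 µM) and the GSK3 inhibitor CHIR99021 (3 µM). The reporter pair, sorted at stage II day 12 as pZscan4c-Emerald positive or negative, came from XEN-like cells derived from ESCs of a 129S6/SvEvTac x C57BL/6Ncr background, so it differs from all other libraries in strain and in starting cell.

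With 1 library for each group nothing checks a difference against replicates, and no p-value was computed. A fold divides one deposited FPKM value by another, and its 95% interval covers the counting error of the reads only, not the variation between cultures. A gene was called higher or lower at a 2-fold difference or more on the log2(FPKM+1) scale where either library reached 1 FPKM, and the share of all genes called is given beside each count. Library totals were 6601290 to 15294927 reads. Reads of mitochondrially encoded genes made up 14.1% of the reporter-negative and 7.37% of the reporter-positive library and 1.25% to 4.67% of the others. Summed FPKM of 8 fibroblast genes was 19286 in MEFs, 352 to 864 in the stage III libraries, 34.9 to 232 in XEN-like and stage II cells and 5.90 and 8.46 in CiPSCs and ESCs, where 3 of the 8 were at 0 in ESCs. The marker genes of extraembryonic endoderm had a mean log2(FPKM+1) of 8.38 in XEN-like cells against 2.34 in MEFs, and those of pluripotent cells one of 8.67 in CiPSCs and 8.82 in ESCs against 0.89 in MEFs, where 4 of 8 were at 0. Each library is bulk RNA, so more cells of a type and more RNA per cell cannot be told apart.

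Polycomb proteins keep developmental genes silent through a pair of complexes. Polycomb repressive complex 2 (PRC2) methylates lysine 27 of histone H3, and Polycomb repressive complex 1 (PRC1) binds that mark through its CBX subunits and ubiquitinates histone H2A. The KMT2 enzymes place the opposing methylation on lysine 4 of histone H3, other enzymes methylate lysine 9 in heterochromatin, and demethylases of the KDM families remove these marks. In pluripotent cells many developmental promoters carry both Polycomb and KMT2 marks, and lysine 9 methylation is known as a barrier to reprogramming of somatic cells.

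The set was expressed nearly throughout. In all 14 libraries 45 of 47 members (95.7%) were at 1 FPKM or more, against 42 of 49 other histone methylation genes (85.7%) and 9302 of 16963 genes expressed in any library (54.8%). The exceptions were Phf19 and Cbx8. Between its lowest and its highest library a member spanned a median of 2.28 on the log2(FPKM+1) scale, against 2.03 for the other histone methylation genes and 1.95 for all expressed genes. These sets were not matched for level, and the members and lists were chosen with earlier results of these data known. The scale also understates the span of low genes, which are more common among all expressed genes. The span was smallest for Pcgf3, at 1.24, and largest for Cbx7, at 4.91. ESCs held the highest level of 12 members, the OG+ sorted cells of 9, and MEFs, XEN-like cells and CiPSCs of 5 each. MEFs held the lowest level of 14 members and the reporter pair of 21, with 17 of them in the reporter-positive cells. The same counts were not made over all genes, and genes at large also stood low in these libraries. Over 6595 expressed genes of 1500 to under 3000 bases, the median deviation from the mean of the 14 libraries was negative there. It was -0.22 in reporter-positive cells, -0.20 in reporter-negative cells, -0.16 in MEFs and -0.20 in CiPSCs, on the log2(FPKM+1) scale.

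**Figure D1:**
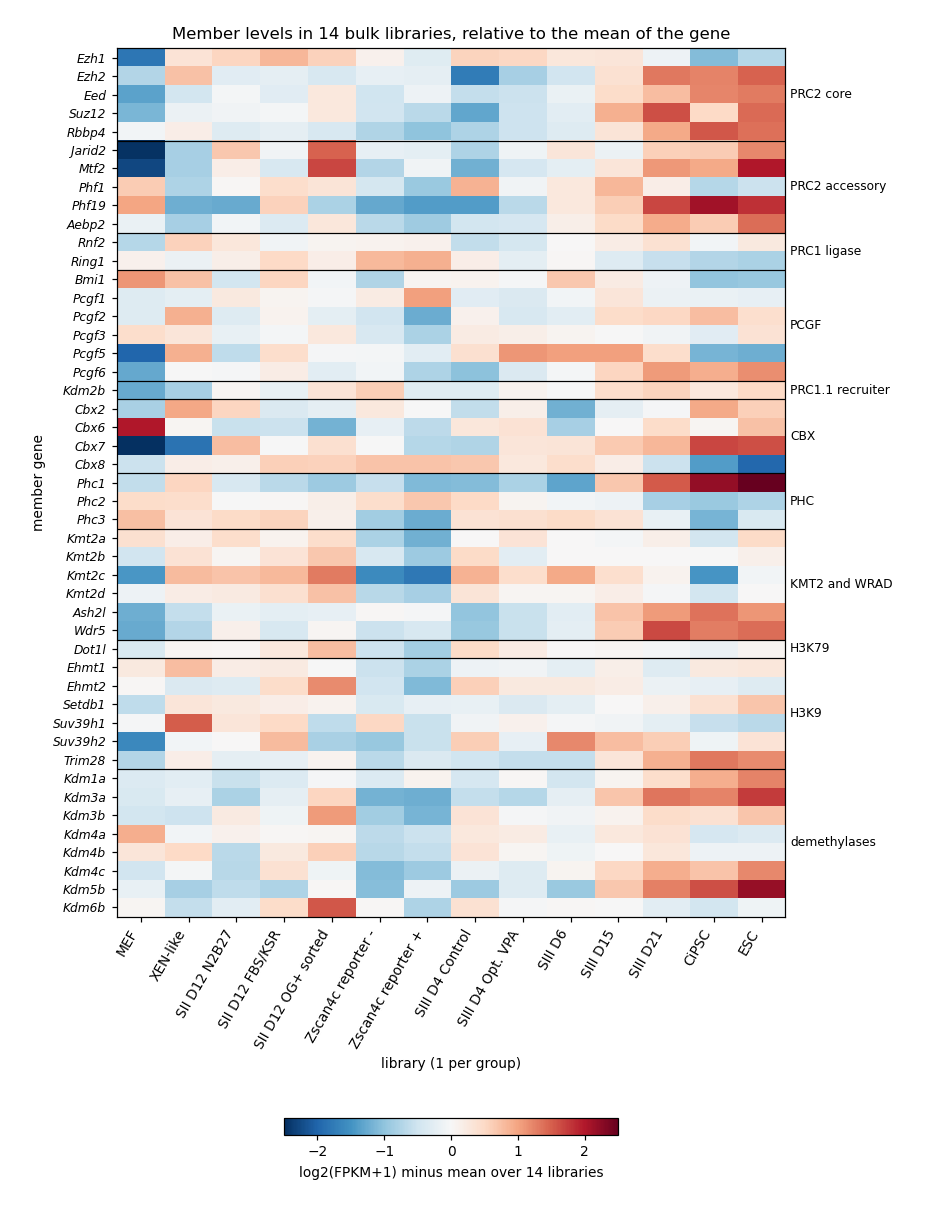
Level of each of the 47 members in each of the 14 libraries, as log2(FPKM+1) minus the mean of that gene over the libraries, in colour with the scale capped at its ends. Rows are genes grouped by role and columns are libraries, with 1 library per group. MEFs hold the lowest level of 14 members and ESCs the highest level of 12, each spread over several blocks.

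EZH2 and EZH1 are the alternative catalytic subunits of PRC2, EZH2 being the form of dividing cells and EZH1 a form known from quiescent and differentiated cells. Ezh1 (chr11:101191115-101226463, GRCm38.p6) was at 9.68 FPKM in MEFs, 46.3 in XEN-like cells, 53.1, 65.1 and 54.9 in the N2B27, FBS/KSR and OG+ sorted stage II cells, and 39.4 and 29.2 in the reporter-negative and reporter-positive cells. Stage III Ezh1 stood at 53.8 FPKM in the day 4 control and 52.9 with Opt. VPA, 44.4 on day 6, 45.2 on day 15 and 33.1 on day 21, with 16.8 in CiPSCs and 21.8 in ESCs. It was lowest in MEFs, high from XEN-like cells to stage III day 15, and low again in the pluripotent lines. Ezh2 (chr6:47530274-47595270) was at 29.0 FPKM in MEFs, 81.9 in XEN-like cells, 39.7, 41.6 and 36.5 in the N2B27, FBS/KSR and OG+ sorted stage II cells, and 42.0 and 41.6 in the reporter-negative and reporter-positive cells. Stage III Ezh2 stood at 13.9 FPKM in the day 4 control and 26.9 with Opt. VPA, 34.8 on day 6, 63.4 on day 15 and 124 on day 21, with 116 in CiPSCs and 138 in ESCs. Its lowest level was in the stage III day 4 control, below that of MEFs, and its highest levels were in stage III day 21, CiPSCs and ESCs. The ratio of Ezh2 to Ezh1, both per length of the gene model, was 2.99 (95% counting interval 2.50 to 3.60) in MEFs and 1.77 (95% counting interval 1.61 to 1.95) in XEN-like cells. It was between 0.639 and 0.748 in the N2B27, FBS/KSR and OG+ sorted stage II cells, 0.258 (95% counting interval 0.213 to 0.311) in the stage III day 4 control, 0.508 with Opt. VPA, and 0.783, 1.40 and 3.73 on stage III days 6, 15 and 21. CiPSCs reached 6.92 (95% counting interval 6.17 to 7.78) and ESCs 6.31 (95% counting interval 5.64 to 7.08), and the intervals of these overlap. Per length of the gene model, Ezh1 thus exceeded Ezh2 in the N2B27, FBS/KSR and OG+ sorted stage II cells. Ezh1 did so too in stage III up to day 6. Ezh2 exceeded Ezh1 in the other libraries, apart from the reporter-negative cells. There the interval of the ratio, 1.07 (95% counting interval 0.947 to 1.20), includes 1. The order rests on recovered gene models of 1797 bases for Ezh1 and 1483 for Ezh2. The intervals do not cover an error in these lengths.

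**Figure D2:**
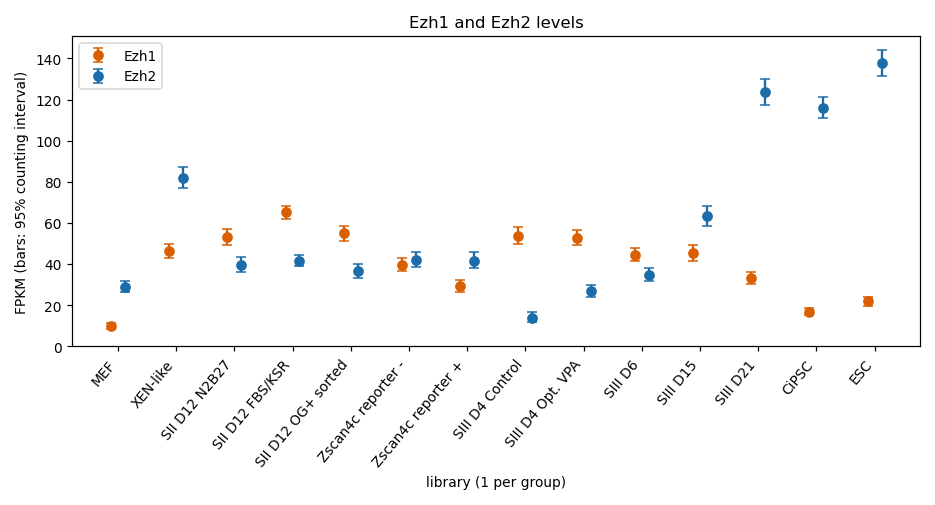
Ezh1 and Ezh2 levels in FPKM (vertical axis, from 0) in the 14 libraries (horizontal axis), with bars for the 95% Poisson counting interval. Ezh1 lies above Ezh2 in the 6 libraries from stage II N2B27, FBS/KSR and OG+ sorted cells to the stage III day 4 pair and day 6, and Ezh2 is highest in stage III day 21, CiPSCs and ESCs.

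The level of Ezh2 stood beside that of 10 proliferation genes, whose mean log2(FPKM+1) was lowest in the same library, at 4.63 in the stage III day 4 control, and highest in CiPSCs and ESCs, at 7.56 and 7.54. It was 5.85 in MEFs, 7.10 in XEN-like cells, 5.63 with Opt. VPA and 6.79 at stage III day 21. Whether proliferation accounts for any part of the Ezh2 levels was not tested.

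Because their levels part ways, the bases upstream of the Ezh1 and Ezh2 starts are shown with those of Cbx7, the member with the widest span on the log2(FPKM+1) scale, and Phf19, the only member under 1 FPKM in several libraries. Sequences and windows are those of RefSeq on GRCm38.p6, which had a promoter window for 40 of the 47 members; Ash2l, Cbx2, Kdm3b, Kdm4b, Kdm6b, Kmt2b and Pcgf1 are named only. Each line gives the 250 bases before the annotated start, 5′ to 3′ on the strand of the gene, which is the minus strand for all of them. The windows are chr11:101226464-101226713 for Ezh1, chr6:47595031-47595280 for Ezh2, chr15:79932647-79932896 for Cbx7 and chr2:34913977-34914226 for Phf19, and those of Ezh2, Cbx7 and Phf19 lie wholly or mostly inside the annotated span of their gene, which holds other starts. Capitals mark matches, on either strand, to CCAAT or GGGCGG or to any of the other motifs searched.
Ezh1: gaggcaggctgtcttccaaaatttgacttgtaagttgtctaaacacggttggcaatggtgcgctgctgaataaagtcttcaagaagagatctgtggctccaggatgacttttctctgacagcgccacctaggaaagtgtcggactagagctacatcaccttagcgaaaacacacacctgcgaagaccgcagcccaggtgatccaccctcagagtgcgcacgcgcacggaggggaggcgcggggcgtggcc
Ezh2: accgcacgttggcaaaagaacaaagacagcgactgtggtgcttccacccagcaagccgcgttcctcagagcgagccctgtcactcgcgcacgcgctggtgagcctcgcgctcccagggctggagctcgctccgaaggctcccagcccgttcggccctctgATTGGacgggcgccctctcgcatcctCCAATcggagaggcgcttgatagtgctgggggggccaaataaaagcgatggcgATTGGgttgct
Cbx7: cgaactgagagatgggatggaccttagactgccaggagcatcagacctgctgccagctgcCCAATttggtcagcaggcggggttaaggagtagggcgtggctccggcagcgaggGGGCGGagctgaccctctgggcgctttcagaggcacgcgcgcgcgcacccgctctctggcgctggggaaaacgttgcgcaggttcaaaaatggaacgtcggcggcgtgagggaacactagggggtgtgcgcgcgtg
Phf19: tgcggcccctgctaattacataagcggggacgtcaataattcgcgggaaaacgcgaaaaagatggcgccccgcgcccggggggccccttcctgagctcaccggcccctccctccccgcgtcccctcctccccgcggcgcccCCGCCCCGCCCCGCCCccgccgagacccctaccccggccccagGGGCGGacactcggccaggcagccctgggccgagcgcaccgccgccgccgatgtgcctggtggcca
The Ezh1 bases hold no match, those of Ezh2 hold 3 CCAAT boxes, those of Cbx7 hold 1 CCAAT box and 1 GC box, and those of Phf19 hold 4 GC boxes.

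The search covered 8 motifs on both strands of the whole 300-base windows, which run 50 bases past the start, and a gene with several windows was counted where any of them held the motif. The GC box GGGCGG was present for 33 of 40 members (82.5%), against 38.2% of 27025 genes, and the E2F-type motif GGCGGGA, which can overlap it, for 17 members (42.5%) against 12.7%. The E-box CACGTG was present for 9 members (22.5%) against 8.09% of genes. CCAAT was present for 17 members (42.5%) against 41.1%, and the ETS-type CCGGAAG for 4 (10.0%) against 9.93%. A TATA-type TATAAA was found for Jarid2 alone, against 15.7% of genes, the octamer ATGCAAAT for Phc2 alone against 1.97%, and a second E2F-type motif, TTTGGCGC, for Ezh2 alone against 0.585%. The members' windows held a median of 29.5 CpG dinucleotides (9 to 56), against 8 for all genes, and the motif shares were not matched for this base composition. A match describes letters in the window, not binding.

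The other PRC2 core subunits followed Ezh2 in part. EED reads methylated lysine 27 and SUZ12 holds the complex together. Eed was lowest in MEFs, at 25.3 FPKM, between 42.9 and 78.9 from XEN-like cells to stage III day 6, then 89.9 and 112 on stage III days 15 and 21, 152 in CiPSCs and 162 in ESCs. Suz12 was lowest in the stage III day 4 control, at 24.4 FPKM, and highest at stage III day 21, at 191 FPKM, with 86.9 in CiPSCs and 166 in ESCs. Both subunits were thus high late in stage III, but Suz12 was 1 of 2 members whose highest level was at day 21 and not in a pluripotent line. Rbbp4, a histone-binding subunit shared with other complexes, ranged from 41.6 FPKM in reporter-positive cells to 247 in CiPSCs.

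The accessory subunits direct PRC2 to its sites. JARID2 and AEBP2 mark the form called PRC2.2, and the Polycomb-like proteins MTF2, PHF1 and PHF19 mark the form called PRC2.1. Jarid2 was at 10.4 FPKM in MEFs, 34.3 in XEN-like cells, 100.1, 58.4 and 174 in the N2B27, FBS/KSR and OG+ sorted stage II cells, and 53.5 and 52.4 in the reporter-negative and reporter-positive cells. Stage III Jarid2 stood at 35.8 FPKM in the day 4 control and 57.7 with Opt. VPA, 76.5 on day 6, 56.0 on day 15 and 93.8 on day 21, with 96.8 in CiPSCs and 144 in ESCs. Its highest level was in the OG+ sorted cells, above both pluripotent lines. Mtf2 was at 11.0 FPKM in MEFs, 31.7 in XEN-like cells, 64.5, 43.0 and 184 in the N2B27, FBS/KSR and OG+ sorted stage II cells, and 33.9 and 53.7 in the reporter-negative and reporter-positive cells. Stage III Mtf2 stood at 24.3 FPKM in the day 4 control and 42.2 with Opt. VPA, 48.1 on day 6, 70.9 on day 15 and 122 on day 21, with 111 in CiPSCs and 230.3 in ESCs. Both genes were lowest in MEFs, with spans of 16.8-fold (95% counting interval 14.7 to 19.3) and 20.9-fold (95% counting interval 18.2 to 24.2), and both stood higher in the OG+ sorted cells than in any other stage II library. Aebp2 varied less, from 30.7 to 153 FPKM. The ratio of Jarid2 to Aebp2 went from 0.204 (95% counting interval 0.176 to 0.237) in MEFs to 2.50 (95% counting interval 2.34 to 2.67) in OG+ sorted cells and 1.08 in CiPSCs.

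Phf19 was at 4.51 FPKM in MEFs, 0.196 in XEN-like cells, 0.165, 3.18 and 0.617 in the N2B27, FBS/KSR and OG+ sorted stage II cells, and 0.144 and 0.0572 in the reporter-negative and reporter-positive cells. Stage III Phf19 stood at 0.0630 FPKM in the day 4 control and 0.741 with Opt. VPA, 2.36 on day 6, 3.27 on day 15 and 7.84 on day 21, with 11.0 in CiPSCs and 8.87 in ESCs. It reached 1 FPKM in 7 of 14 libraries, rested on 1 read in reporter-positive cells, and was high in MEFs and again from stage III day 6, with the FBS/KSR cells standing apart from the other stage II libraries. Its span was 192-fold (95% counting interval 34.1 to 7595), the widest in ratio and the least certain. Phf1 ran from 3.79 FPKM in reporter-positive cells to 15.7 in the stage III day 4 control. Among the 3 Polycomb-like genes, MEFs gave Phf1 45.9% and Mtf2 38.4% of the summed FPKM, while Mtf2 held 87.4% in XEN-like cells, 87.7% in CiPSCs and 94.2% in ESCs. The stage III day 4 control was the library nearest to MEFs in this respect, with Mtf2 at 60.8% and Phf1 at 39.1%.

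Of the PRC1 ligases that ubiquitinate histone H2A, Rnf2 exceeded Ring1 in every library. Rnf2 ranged from 36.3 FPKM in MEFs to 90.1 in XEN-like cells, among the narrower spans of the set. Ring1 ran from 11.1 FPKM in ESCs to 37.6 in reporter-positive cells. The Rnf2 to Ring1 ratio was lowest in MEFs, at 1.69 (95% counting interval 1.47 to 1.94), and highest in ESCs, at 6.47 (95% counting interval 5.49 to 7.67). The reporter pair (1.82 negative and 1.74 positive) and the stage III day 4 control (1.75) lay within the interval of the MEF ratio, and stage III day 21 (6.15) within that of the ESC ratio.

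PCGF proteins define which kind of PRC1 forms. PCGF2 and BMI1 (PCGF4) belong to the canonical complexes that hold CBX proteins, and PCGF1, PCGF3, PCGF5 and PCGF6 to variant complexes. Bmi1 was at 39.5 FPKM in MEFs, 30.2 in XEN-like cells, 12.7, 26.3 and 17.1 in the N2B27, FBS/KSR and OG+ sorted stage II cells, and 10.3 and 18.8 in the reporter-negative and reporter-positive cells. Stage III Bmi1 stood at 19.1 FPKM in the day 4 control and 17.4 with Opt. VPA, 29.0 on day 6, 20.7 on day 15 and 16.3 on day 21, with 8.55 in CiPSCs and 8.84 in ESCs. It was highest in MEFs and lowest in CiPSCs and ESCs, whose intervals of 7.12 to 10.2 and 7.22 to 10.7 FPKM overlap. Pcgf5 was at 4.87 FPKM in MEFs, 42.4 in XEN-like cells, 14.03, 30.7 and 21.7 in the N2B27, FBS/KSR and OG+ sorted stage II cells, and 21.6 and 18.3 in the reporter-negative and reporter-positive cells. Stage III Pcgf5 stood at 29.8 FPKM in the day 4 control and 49.1 with Opt. VPA, 46.5 on day 6, 46.7 on day 15 and 30.7 on day 21, with 9.37 in CiPSCs and 9.04 in ESCs. It was low in MEFs and in both pluripotent lines and higher in all intermediates, with its highest levels in XEN-like cells and in stage III from day 4 with Opt. VPA to day 15. Pcgf6, known from germ cells and ESCs, ran the other way late in the series, from 6.63 FPKM in MEFs to 37.9 at stage III day 21, 33.5 in CiPSCs and 40.2 in ESCs. As shares of the summed FPKM of the 6 PCGF genes, Bmi1 took 27.5% in MEFs and 5.16% in CiPSCs, Pcgf2 took 21.4% and 40.2%, and Pcgf6 took 4.61% and 20.2%. Pcgf2 was highest in XEN-like cells, at 72.5 FPKM, and lowest in reporter-positive cells, at 15.7, and Pcgf3 had the narrowest span of the set, from 16.9 to 41.2 FPKM. Pcgf1, whose complex also holds KDM2B, was highest in reporter-positive cells, at 54.7 FPKM, against 20.1 to 32.3 elsewhere. Kdm2b, whose protein carries that complex to CpG islands, was lowest in MEFs, at 22.1 FPKM, and highest in reporter-negative cells, at 83.5 FPKM.

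CBX proteins are the subunits of canonical PRC1 that bind methylated lysine 27, and CBX7 is the form best known from ESCs. Cbx7 (chr15:79915804-79971143) was at 1.67 FPKM in MEFs, 6.04 in XEN-like cells, 42.1, 24.2 and 32.3 in the N2B27, FBS/KSR and OG+ sorted stage II cells, and 23.9 and 14.3 in the reporter-negative and reporter-positive cells. Stage III Cbx7 stood at 14.01 FPKM in the day 4 control and 30.1 with Opt. VPA, 30.7 on day 6, 38.7 on day 15 and 44.1 on day 21, with 79.4 in CiPSCs and 76.6 in ESCs. It rested on 28 reads in MEFs and stood above its XEN-like level in every later library. Cbx6 was at 105 FPKM in MEFs and between 10.7 in OG+ sorted cells and 43.1 in ESCs elsewhere. Of the summed FPKM of Cbx2, Cbx6, Cbx7 and Cbx8, Cbx6 made up 91.4% and Cbx7 1.45% in MEFs, while Cbx7 made up 53.6% in stage II N2B27 cells, 63.6% in CiPSCs and 57.3% in ESCs. Cbx6 was thus the most abundant of the family in MEFs and Cbx7 in both pluripotent lines. Cbx2 was at 4.39 FPKM in MEFs, 17.5 in XEN-like cells, 3.12 at stage III day 6, its lowest level, and 17.1 in CiPSCs. Cbx8 was lowest in the pluripotent lines, at 1.65 FPKM in CiPSCs and 0.795 in ESCs, against up to 10.4 in reporter-positive cells. The annotated spans of Cbx6 and Cbx7 overlap those of the protein-coding genes Npcd and Apobec3, and no source used here says whether the authors counted reads by strand.

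PHC proteins link PRC1 complexes to each other through their SAM domain. Phc1 was at 20.3 FPKM in MEFs, 46.3 in XEN-like cells, 23.8, 19.5 and 16.4 in the N2B27, FBS/KSR and OG+ sorted stage II cells, and 20.8 and 14.1 in the reporter-negative and reporter-positive cells. Stage III Phc1 stood at 14.4 FPKM in the day 4 control and 17.8 with Opt. VPA, 12.1 on day 6, 51.1 on day 15 and 92.9 on day 21, with 149.6 in CiPSCs and 187 in ESCs. It was low from stage II to stage III day 6, and the next time point, day 15, lay well above that. Phc2 ranged from 20.8 FPKM in CiPSCs to 64.6 in reporter-positive cells, and was at 55.7 in MEFs and 23.3 in ESCs. The ratio of Phc1 to Phc2 was 0.365 (95% counting interval 0.326 to 0.409) in MEFs, 0.840 (95% counting interval 0.763 to 0.925) in XEN-like cells, 0.317 at stage III day 6, 1.38 (95% counting interval 1.23 to 1.55) at day 15, 4.20 (95% counting interval 3.72 to 4.76) at day 21, 7.19 in CiPSCs and 8.03 in ESCs. Per length of the gene model, Phc2 exceeded Phc1 in all libraries before stage III day 15 and in the reporter pair. Phc1 exceeded Phc2 on stage III days 15 and 21 and in CiPSCs and ESCs. Phc3 was highest in MEFs, at 12.3 FPKM, and lowest in reporter-positive cells and CiPSCs, at 2.38 and 2.55.

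**Figure D3:**
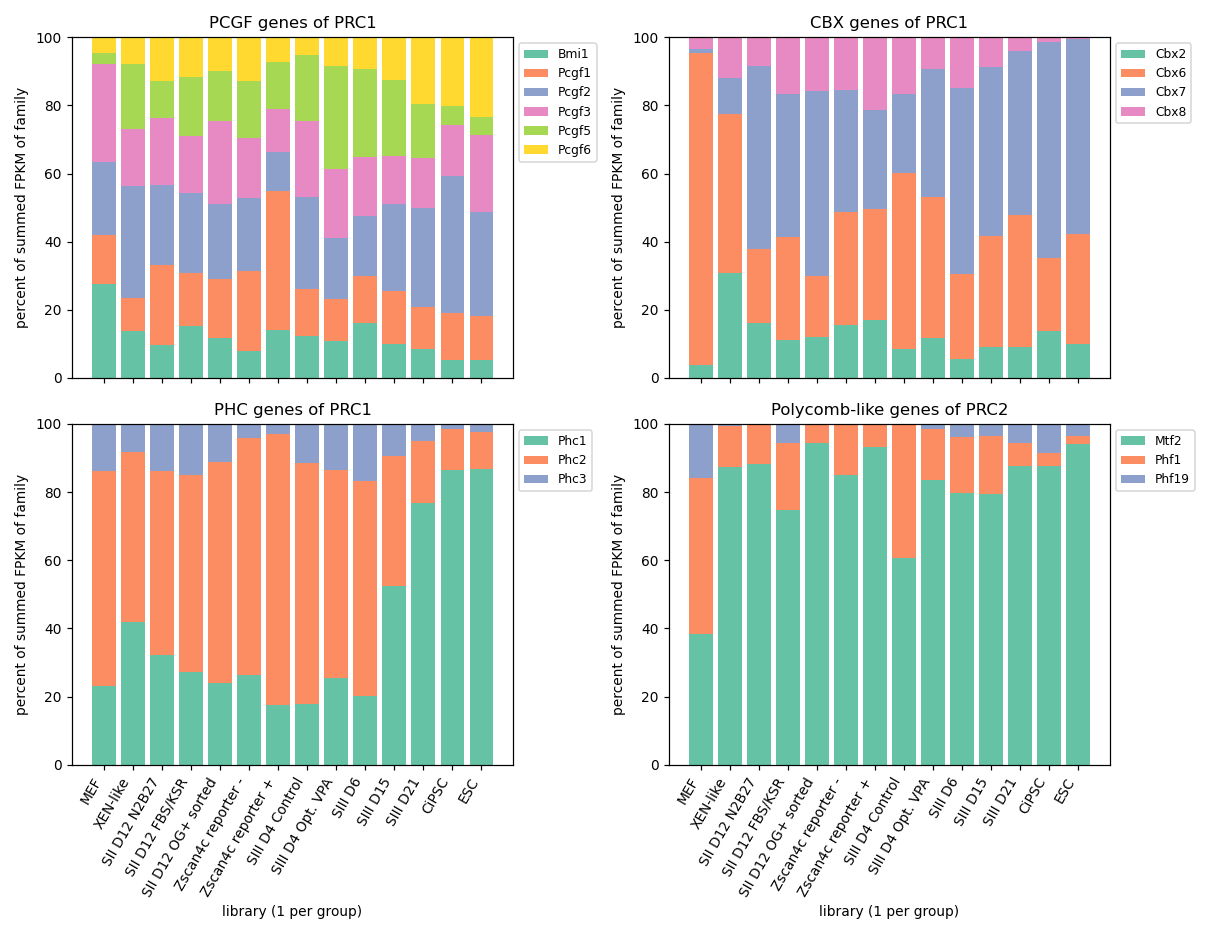
Shares of the summed FPKM of each family (vertical axis, percent) taken by its genes in the 14 libraries (horizontal axis) for the PCGF, CBX, PHC and Polycomb-like families; colours are genes. Cbx6 gives way to Cbx7, Phc2 to Phc1, and Bmi1 to Pcgf2 and Pcgf6 between MEFs on the left and CiPSCs and ESCs on the right.

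Shares and ratios within a family rest on the gene-model lengths behind the FPKM values, which were recovered from the values and whose annotation no source used here names.

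KMT2 enzymes methylate lysine 4 of histone H3, KMT2A and KMT2B mainly at promoters and KMT2C and KMT2D mainly at enhancers, each with the shared subunits WDR5 and ASH2L. The enzymes and the shared subunits differed in pattern. Wdr5 was at 40.1 FPKM in MEFs, 82.1 at stage III day 6, 152 at day 15, 308 at day 21, 238 in CiPSCs and 258 in ESCs. Ash2l was at 42.5, 83.2, 165, 211, 259.9 and 217 FPKM in the same libraries. Both were lowest in MEFs and high from stage III day 15. Kmt2c was at 6.69 FPKM in MEFs, 35.6 in XEN-like cells, 33.6, 36.2 and 51.3 in the N2B27, FBS/KSR and OG+ sorted stage II cells, and 5.99 and 5.10 in the reporter-negative and reporter-positive cells. Stage III Kmt2c stood at 37.6 FPKM in the day 4 control and 27.6 with Opt. VPA, 39.6 on day 6, 27.2 on day 15 and 21.4 on day 21, with 6.60 in CiPSCs and 19.2 in ESCs. It was therefore low in MEFs, CiPSCs and the reporter pair, at 6.69 FPKM or less, and at 19.2 FPKM or more in the other 10 libraries. Kmt2a ranged from 2.28 to 9.46 FPKM, Kmt2b from 21.9 to 67.7 and Kmt2d from 3.26 to 11.5, all 3 lowest in reporter-positive cells.

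Libraries differed in how long genes stood against short ones, which touches the KMT2 genes, Phc3 and the longer demethylase genes. Kmt2c has a gene model of 5232 bases, Kmt2a of 8694, Kmt2d of 13460 and Kdm3b of 7112. Kmt2b, with a model of 3321 bases, falls outside the class of 5000 bases or more. These lengths were recovered from the FPKM values and may differ from those of the transcripts. Over 862 expressed genes of 5000 bases or more, the median deviation from the mean of the 14 libraries was -0.42 and -0.43 on the log2(FPKM+1) scale in the reporter-negative and reporter-positive cells and -0.36 in CiPSCs. It was -0.01 in ESCs and 0.13 in MEFs. Over 6978 genes under 1500 bases it was -0.09 in CiPSCs and -0.32 in MEFs. Long genes thus stood low in CiPSCs and the reporter pair. All 4 members with models of 5000 bases or more were lowest in reporter-positive cells, and the part of gene length in their order was not tested.

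**Figure D4:**
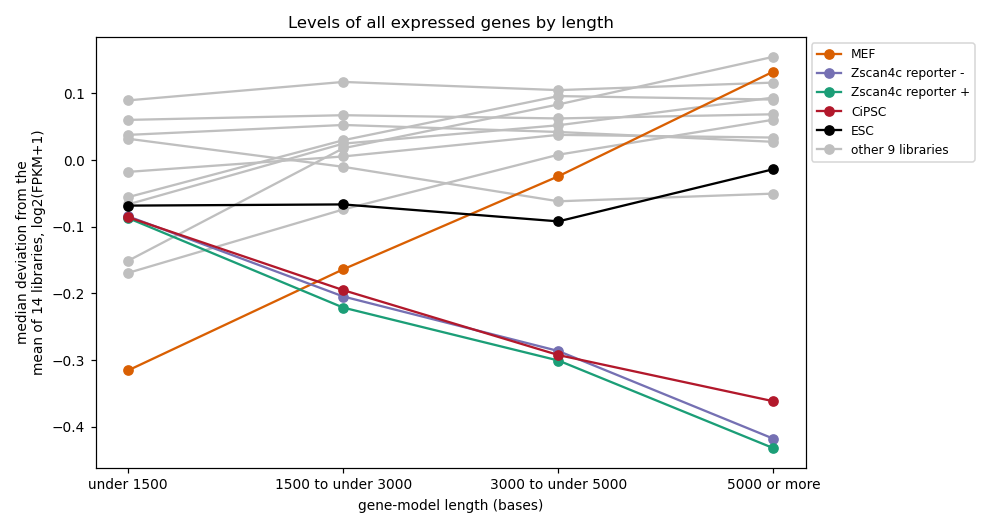
Median deviation of all expressed genes from their mean over the 14 libraries, on the log2(FPKM+1) scale (vertical axis), in 4 classes of gene-model length (horizontal axis), with 1 line per library. The CiPSC line and the reporter pair fall from left to right to between -0.36 and -0.43 for the longest genes, the MEF line runs the opposite way, and the ESC line is near level.

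Dot1l, which encodes the only known methyltransferase of lysine 79 of histone H3 and a target of the stage I cocktail, ranged from 22.1 FPKM in reporter-positive cells to 69.2 in OG+ sorted cells. It was at 30.8 FPKM in MEFs, 41.7 in XEN-like cells, 36.5 in CiPSCs and 42.4 in ESCs. It was called in none of the 14 comparisons.

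The methyltransferases of lysine 9 fall into 3 kinds. SUV39H1 and SUV39H2 act at pericentromeric heterochromatin, EHMT1 and EHMT2 (GLP and G9a) in euchromatin, and SETDB1 works with the corepressor TRIM28 to silence retroviral elements. Suv39h1 was at 12.3 FPKM in MEFs, 38.1 in XEN-like cells, 15.8, 18.2 and 7.80 in the N2B27, FBS/KSR and OG+ sorted stage II cells, and 18.5 and 8.26 in the reporter-negative and reporter-positive cells. Stage III Suv39h1 stood at 11.8 FPKM in the day 4 control and 13.8 with Opt. VPA, 12.3 on day 6, 11.7 on day 15 and 10.5 on day 21, with 8.13 in CiPSCs and 7.49 in ESCs. It stood out in XEN-like cells, and the level in ESCs was the lowest of the 14. Suv39h2 was lowest in MEFs, at 2.34 FPKM, and highest at stage III day 6, at 22.4 FPKM. The ratio of Suv39h1 to Suv39h2 was 5.26 (95% counting interval 3.99 to 7.05) in MEFs, 4.39 in XEN-like cells, 0.550 (95% counting interval 0.477 to 0.634) at stage III day 6 and 0.965 (95% counting interval 0.805 to 1.16) in CiPSCs. Ehmt2 was highest in OG+ sorted cells, at 270.3 FPKM, against 54.4 to 179 elsewhere, and Ehmt1 ranged from 14.8 to 45.6 FPKM. Trim28 was the most abundant member in all libraries, from 378 FPKM in MEFs to 1574 in CiPSCs, and Setdb1 went from 13.6 in MEFs to 35.7 in ESCs. Of the 47 members 8 have a span that overlaps another protein-coding gene, namely Trim28, Setdb1, Suv39h2, Rbbp4, Kdm1a and Kdm5b beside Cbx6 and Cbx7.

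Among the demethylases, Kdm1a (LSD1, acting on lysine 4, and the target of tranylcypromine) ranged from 61.7 FPKM in stage II N2B27 cells to 215 in ESCs. It was at 71.2 FPKM in MEFs and 75.7 in XEN-like cells. Kdm5b, which removes trimethylation of lysine 4, was at 20.0 FPKM in MEFs, 11.5 at stage III day 6, 37.0 at day 15, 56.1 at day 21, 71.3 in CiPSCs and 106 in ESCs, a span of 10.2-fold (95% counting interval 9.20 to 11.4) from its lowest library, the reporter-negative cells. Kdm3a, a lysine 9 demethylase, ran from 3.81 FPKM in reporter-positive cells to 36.5 in ESCs, and Kdm4c, of a family acting on lysine 9 and lysine 36, from 6.61 to 36.4. Kdm6b (JMJD3), which removes the PRC2 mark, had its highest level outside the pluripotent lines. Kdm6b was at 68.3 FPKM in OG+ sorted cells, against 12.9 to 31.5 FPKM elsewhere, with 16.3 in CiPSCs. Kdm4a was highest in MEFs, at 52.2 FPKM, and Kdm4b was the demethylase with the narrowest span, 2.62-fold. Kdm2b, also a KDM gene, is described with Pcgf1 and is left out of the 8 demethylases counted in the comparisons.

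Against MEFs, XEN-like cells showed 14 of 47 members higher and 3 lower, with a median log2 fold of 0.43 against 0.21 for all genes. Of all genes 18.8% were called higher and 17.5% lower. By role, 2 of 5 PRC2 core genes, 2 of 5 PRC2 accessory genes and 1 of 2 PRC1 ligases were higher. So were 3 of 6 PCGF, 2 of 4 CBX and 1 of 3 PHC genes. Of the 6 genes of KMT2 enzymes and shared subunits 1 was higher, Kmt2c, and of 6 lysine 9 genes 2, Suv39h1 and Suv39h2. The lower members were 2 of the 5 accessory genes and 1 of the 4 CBX genes. Pcgf5 was 8.69-fold (95% counting interval 6.80 to 11.3) higher, Kmt2c 5.33-fold (95% counting interval 4.74 to 6.01), and Ezh1 4.78-fold (95% counting interval 4.04 to 5.69). Cbx2 (3.99-fold), Suv39h2 (3.71), Cbx7 (3.62), Jarid2 (3.31), Suv39h1 (3.09), Mtf2 (2.87), Ezh2 (2.83), Pcgf6 (2.62), Rnf2 (2.48), Pcgf2 (2.35) and Phc1 (2.28) made up the rest. Lower were Phf19, 23.0-fold (95% counting interval 8.71 to 85.9) on 4 reads in XEN-like cells, Cbx6, 3.99-fold (95% counting interval 3.57 to 4.47), and Phf1, 3.01-fold. Of the 8 demethylases none was called, and Kdm4a lay nearest, 2.00-fold lower by FPKM and -0.98 on the log2(FPKM+1) scale. Scaling by the median of ratios, which sets the libraries to a common typical gene in place of a common total, shifted log2 ratios of FPKM by -0.27 here, with smaller shifts on the log2(FPKM+1) scale for low genes. That left 12 members higher and 4 lower, took Pcgf2 and Phc1 below the threshold and brought Kdm4a past it. Of 47 other histone methylation genes tested, 6 were higher, among them L3mbtl2 (3.80-fold), Bcor (2.58) and Rybp (2.22), which belong to variant PRC1 complexes. Another 3 were lower.

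Stage II was set against XEN-like cells in 2 media. In N2B27, 3 of 46 members tested were higher and 6 lower (all genes 17.7% and 8.56%), with a median log2 fold of -0.02 against 0.05 for all genes. Cbx7 was 6.98-fold (95% counting interval 5.56 to 8.84) higher, Jarid2 2.92-fold (95% counting interval 2.66 to 3.20) and Mtf2 2.04-fold (95% counting interval 1.83 to 2.27). Under median-of-ratios scaling Mtf2 fell just under the threshold, which left 2 members higher. Lower were Pcgf5 (3.02-fold), Kdm4b (2.42), Suv39h1 (2.41), Bmi1 (2.37), Pcgf2 (2.36) and Ezh2 (2.06), which include 3 of the 6 PCGF genes of the set. The lower members are 13.0% of those tested, against 8.56% of all genes. Of 46 other histone methylation genes 1 was higher and 5 lower, the lower ones including Setd7 (3.18-fold) and Cbx5 (2.33).

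In FBS/KSR, 4 of 47 members were higher and 3 lower than in XEN-like cells (all genes 16.1% and 10.3%), with a median of 0.11 against -0.02. Phf19 was 16.2-fold (95% counting interval 6.16 to 60.5) higher, Cbx7 4.01-fold (95% counting interval 3.20 to 5.06), Phf1 2.61-fold and Kdm6b 2.16-fold. Cbx2 was 2.74-fold lower, Phc1 2.37-fold and Suv39h1 2.09-fold, and under median-of-ratios scaling Suv39h1 was not called, which left 4 higher and 2 lower. Both stage II comparisons use the same XEN-like library, so Cbx7 and Suv39h1, called in both, share its error. Of 46 other histone methylation genes 1 was higher and 1 lower.

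The stage II media set against each other gave 0 of 47 members higher and 3 lower in N2B27 (all genes 10.7% and 7.30%). MEF feeders are stated for the N2B27 cells and not for the FBS/KSR cells, so medium and feeders cannot be told apart here. Phf19 was 19.2-fold (95% counting interval 6.42 to 94.6) lower on 3 reads in N2B27, Kdm4c 2.23-fold (95% counting interval 1.85 to 2.70) and Pcgf5 2.19-fold (95% counting interval 1.84 to 2.61). The median was -0.08 against 0.07 for all genes. Among 45 other histone methylation genes 2 were higher and 4 lower, with Bcorl1 5.01-fold higher and Phf2, a histone demethylase family gene, 2.79-fold lower.

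The OG+ PDGFRAlow/- PECAM- fraction was set against unsorted N2B27 cells of the same day; the labels do not name its medium. Of 46 members tested 5 were higher and 0 lower (all genes 12.0% and 12.0%), with a median of 0.30 against -0.06. Kdm6b was 3.67-fold (95% counting interval 3.34 to 4.04) higher, at 68.3 against 18.6 FPKM. Ehmt2 was 2.86-fold (95% counting interval 2.68 to 3.04) higher and Mtf2 2.86-fold (95% counting interval 2.66 to 3.08). Kdm3a (2.80-fold) and Kdm4b (2.58-fold), of families that act on lysine 9, completed the 5. These include 3 of the 8 genes counted as demethylases, but the 10.9% of members called higher lies near the 12.0% of all genes. Jarid2 was 1.74-fold higher and was not called, although its level was the highest of the 14 libraries. Of 46 other histone methylation genes 4 were higher, Bcor by 3.53-fold and the lysine 4 methyltransferase Setd1b by 3.49-fold, and 0 lower. Mean log2(FPKM+1) of 5 trophoblast markers was 7.06 in the sorted cells and 3.46 in N2B27 cells, and its part in these differences was not tested.

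Within the reporter pair, which shares strain and sort day, 0 of 46 members tested were higher and 1 lower in reporter-positive cells (all genes 8.37% and 5.15%). Suv39h1 was 2.24-fold (95% counting interval 1.85 to 2.72) lower, at 8.26 against 18.5 FPKM. The members' median was -0.20 against -0.04 for all genes. Just under the threshold lay Kdm5b, 2.00-fold higher by FPKM and 0.94 on the log2(FPKM+1) scale, Kdm2b, 1.91-fold lower, and Pcgf1, 1.81-fold higher. KDM2B and PCGF1 are subunits of the same complex, and their transcripts, neither of them called, lay on opposite sides. Other PCGF genes lay on both sides too, with Bmi1 at 18.8 against 10.3 FPKM and Pcgf2 at 15.7 against 27.5. Of 47 other histone methylation genes, Bcorl1 was called higher, 2.45-fold, and 0 lower. The mitochondrial share of the libraries differs, and with totals that leave out the mitochondrially encoded genes, an alternative chosen after seeing the data, 2 members were lower.

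With Opt. VPA at stage III day 4, 1 of 46 members tested was higher and 0 lower than in the control (all genes 5.77% and 3.28%), and the median was 0.00 against 0.12. Cbx7 was 2.15-fold (95% counting interval 1.79 to 2.59) higher, 30.1 against 14.01 FPKM. Under median-of-ratios scaling, which shifted log2 ratios of FPKM by -0.12, Cbx7 stood at 0.93 and was not called, while Phf1 passed the threshold, so the split became 0 higher and 1 lower. Phf19 was under 1 FPKM in both libraries and so was not tested, at 0.741 FPKM on 15 reads with Opt. VPA and 0.0630 on 1 read in the control. The other PRC2 genes, none of them called, were uneven. Ezh2 was 1.93-fold (95% counting interval 1.58 to 2.38) higher, Suz12 1.73-fold (95% counting interval 1.51 to 2.00), Mtf2 1.73-fold (95% counting interval 1.51 to 1.99) and Jarid2 1.61-fold (95% counting interval 1.45 to 1.80), while Eed (1.04-fold), Aebp2 (1.03), Ezh1 (0.983) and Rbbp4 (1.21) lay nearer to 1. In the other direction, Phf1 was 2.06-fold (95% counting interval 1.68 to 2.54) lower by FPKM and -0.96 on the log2(FPKM+1) scale, and Suv39h2 was 1.87-fold lower. The proliferation genes stood at 4.63 in the control and 5.63 with Opt. VPA. Of 46 other histone methylation genes, Bcorl1 was called higher, 4.07-fold.

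Stage III day 6 was set against both stage II media, since the labels do not say which came before it. Against N2B27, 4 of 47 members were higher and 1 lower (all genes 9.99% and 8.98%), with a median of -0.11 against -0.04. Higher were Phf19 (14.2-fold, on 3 reads in N2B27), Pcgf5 (3.31-fold), Suv39h2 (2.44-fold) and Bmi1 (2.28-fold), and Cbx2 was 4.05-fold (95% counting interval 3.07 to 5.40) lower. Against FBS/KSR, 0 of 47 members were higher and 0 lower (all genes 6.05% and 2.01%), with a median of -0.16 against 0.01. The member farthest from equal was Cbx2, 2.04-fold lower by FPKM and -0.84 on the log2(FPKM+1) scale. Of the other histone methylation genes, 2 were higher and 2 lower of 45 against N2B27, and 0 were called of 44 against FBS/KSR.

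From stage III day 6 to day 15, 3 of 47 members were higher and 0 lower (all genes 6.23% and 5.02%), and the median was 0.33 against 0.04. Phc1 was 4.23-fold (95% counting interval 3.68 to 4.88) higher, Kdm5b 3.21-fold (95% counting interval 2.87 to 3.59) and Suz12 2.27-fold (95% counting interval 2.09 to 2.47). Of 48 other histone methylation genes 3 were higher, among them the pluripotency regulator Prdm14 (8.17 against 0.941 FPKM) and Dpy30 (2.36-fold), a further shared subunit of the KMT2 complexes, and 0 lower. From day 15 to day 21, 2 of 47 members were higher and 0 lower (all genes 1.72% and 7.50%), with a median of 0.19 against -0.07. Phf19 was 2.39-fold (95% counting interval 1.75 to 3.31) higher and Wdr5 2.03-fold (95% counting interval 1.91 to 2.17). Ezh2 was 1.95-fold (95% counting interval 1.78 to 2.14) higher and stood at 0.95 on the log2(FPKM+1) scale, under the threshold. Of 48 other genes of the pathway, Prdm14 was higher and Setd7 lower. Over these days the mean log2(FPKM+1) of 8 pluripotency genes went from 5.74 on day 6 to 7.68 and 8.30, and that of the proliferation genes from 5.42 to 6.06 and 6.79; their part in the members' differences was not tested.

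CiPSCs against stage III day 21 gave 0 of 47 members higher and 3 lower (all genes 4.88% and 15.4%), with a median of -0.15 against -0.18. Pcgf5 was 3.27-fold (95% counting interval 2.72 to 3.95) lower, Kmt2c 3.24-fold (95% counting interval 2.88 to 3.65) and Suz12 2.19-fold (95% counting interval 2.07 to 2.33). Scaling shifted log2 ratios of FPKM by 0.20 here and gave 2 members higher (Cbx2 and Cbx7) and 2 lower, with Suz12 no longer called. Of 48 other histone methylation genes 0 were higher and 4 lower, among them Bcor, Phf2 and Ash1l, at 2.66-fold, 3.52-fold and 2.69-fold. The fibroblast genes stood at a summed 352 FPKM at day 21 against 5.90 in CiPSCs, and their part in these differences was not tested.

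The end points differed most. CiPSCs against MEFs gave 22 of 47 members higher and 6 lower (all genes 25.8% and 25.3%), with a median of 0.82 against 0.05 for all genes and 0.03 for 48 other histone methylation genes, of which 8 were higher and 6 lower. Of the 5 PRC2 core genes 4 were higher: Eed 6.01-fold (95% counting interval 5.34 to 6.79), Ezh2 4.00-fold (95% counting interval 3.60 to 4.46), Suz12 3.19-fold and Rbbp4 3.06-fold, while Ezh1 was 1.73-fold higher and was not called. Of the accessory genes, Mtf2 was 10.1-fold (95% counting interval 8.77 to 11.7) higher, Jarid2 9.33-fold (95% counting interval 8.12 to 10.8) and Phf19 2.43-fold, and Phf1 2.87-fold lower. Apart from Phf1, the PRC2 members that were called were higher in CiPSCs. In PRC1 the CBX, PHC and PCGF families each had members on both sides. Cbx7 was 47.6-fold (95% counting interval 32.8 to 71.9) higher, Cbx2 3.90-fold higher and Cbx6 3.95-fold lower. Cbx8 was at 1.65 FPKM in CiPSCs against 3.82 in MEFs and was not called. Phc1 was 7.36-fold (95% counting interval 6.67 to 8.12) higher, Phc2 2.67-fold lower and Phc3 4.83-fold lower. Cbx6 and Phc2, the most abundant of their families in MEFs per length of the gene model, were thus among the lower ones. Pcgf6 was 5.05-fold and Pcgf2 2.16-fold higher, and Bmi1 4.62-fold (95% counting interval 3.78 to 5.67) lower. Kdm2b was 2.93-fold higher, and neither ligase was called.

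In the same comparison Ash2l was 6.12-fold (95% counting interval 5.69 to 6.59) higher and Wdr5 5.93-fold (95% counting interval 5.41 to 6.51), while none of the 4 KMT2 enzymes was called. For Kmt2c the ratio was 0.987-fold (95% counting interval 0.852 to 1.14), and the interval includes 1. Trim28 was 4.17-fold (95% counting interval 4.02 to 4.32) higher, Suv39h2 3.60-fold and Setdb1 2.11-fold, the last near the threshold. Of the 8 demethylases, counted without Kdm2b, Kdm5b (3.56-fold), Kdm3a (3.34-fold), Kdm1a (2.42-fold) and Kdm4c (2.39-fold) were higher and Kdm4a (2.60-fold) lower. The other genes of the pathway called higher included Dpy30 (10.1-fold) and L3mbtl2 (8.42-fold), with Prdm14 listed at 0 in MEFs and at 13.2 FPKM in CiPSCs. Those lower included Phf2 (8.37-fold). Gene length moved with this comparison too: the median log2 fold of all genes was 0.54 for models under 1500 bases and -0.72 for those of 5000 bases or more, and the members' medians in the same classes were 1.53 for 8 genes and -0.17 for 4. Between those, 27 members from 1500 to under 3000 bases had a median of 1.12 against -0.09 for all genes, and 8 from 3000 to under 5000 bases one of 0.36 against -0.39.

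**Figure D5:**
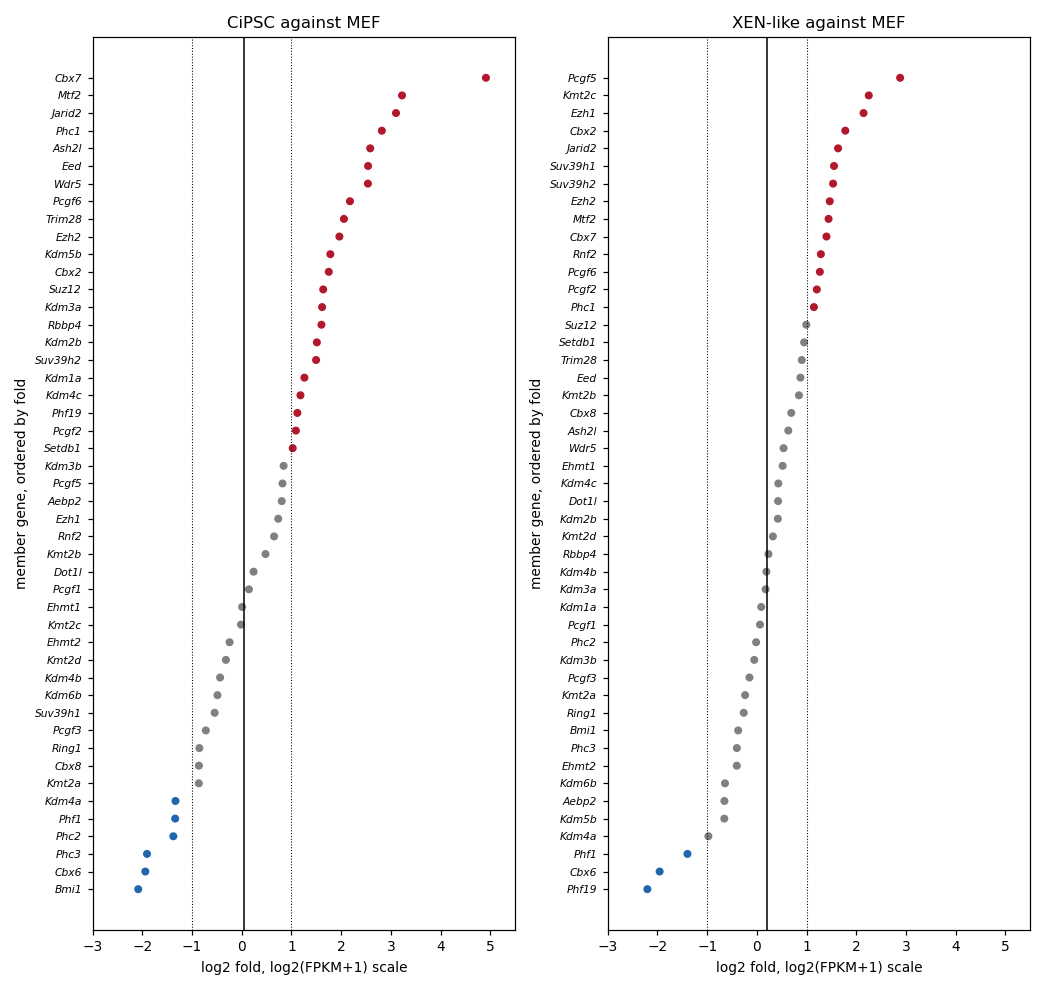
Log2 fold on the log2(FPKM+1) scale (horizontal axis) of the 47 members, ordered by fold, for CiPSCs against MEFs and for XEN-like cells against MEFs. Dotted lines mark the 2-fold threshold, the solid line the median of all genes, red and blue points the members called higher (22 and 14) and lower (6 and 3), and grey points those not called; each point compares 1 library with 1 library.

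Against ESCs, 0 of 47 members were higher and 2 lower in CiPSCs (all genes 1.79% and 4.77%), with a median of -0.24 against -0.09. Both shares lie near or under those of all genes. Kmt2c was 2.91-fold (95% counting interval 2.58 to 3.28) lower and Mtf2 2.07-fold (95% counting interval 1.97 to 2.18), the latter at -1.04 on the log2(FPKM+1) scale and -0.89 under median-of-ratios scaling, which shifted log2 ratios of FPKM by 0.15. Just under the threshold were Kmt2a, 2.13-fold lower by FPKM and -0.94 on the log2(FPKM+1) scale, and Suz12, 1.91-fold (95% counting interval 1.80 to 2.02) lower. Of 48 other histone methylation genes 0 were higher and 4 lower, Kdm7a, Atrx, Asxl2 and Jmjd1c, at 3.26-fold, 2.68-fold, 2.31-fold and 2.05-fold. Here the median of all genes was 0.10 for models under 1500 bases and -0.46 for those of 5000 bases or more, where the 4 members, Kmt2a, Kmt2c, Kmt2d and Kdm3b, had a median of -0.70. The lines differ in strain, and the part of strain and of gene length in these differences was not tested.

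Comparisons that share a library, such as the 2 with MEFs, the 4 with stage II N2B27 cells and the 3 with CiPSCs, are not independent of each other. Across the 14 comparisons Phf19 was called in 6, Mtf2, Cbx7 and Pcgf5 in 5 each, and Suv39h1, Phc1 and Cbx2 in 4 each. In none were Aebp2, Cbx8, Dot1l, Ehmt1, Kdm3b, Kmt2a, Kmt2b, Kmt2d, Pcgf1, Pcgf3 and Ring1 called, which is 11 of the 47 members.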

How the data were processed

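RNA of 14 mouse libraries, 1 for each group, had been sequenced, and the authors deposited FPKM values for 35275 gene entries. Per the submitters' processing notes, FastQC, Cell Ranger 2.0.1, Bismark, Bowtie2 and mm10 were used in the study, with no role stated; for the bulk FPKM values, no source used here gives the aligner, counter, strand setting or gene annotation. FPKM of a gene are whole multiples of what 1 read is worth, so reads and gene-model lengths were recovered from the deposited values, to within 0.001 of a whole number and for all but 1 entry; totals were 6601290 to 15294927 reads.

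The 47 members were matched by name. Differences were taken on the log2(FPKM+1) scale, which understates the change of low genes, and a member was called at 2-fold or more with 1 FPKM or more in either library. With 1 library for each group no test was made. Fold intervals are exact binomial (Clopper-Pearson) and level intervals exact Poisson, both at 95% and for counting error only; reads without molecular identifiers are not independent molecules. Every called member was named, and in the account of levels a fixed set of central genes and the widest and narrowest of each role. The members and lists were chosen with earlier results of these data known, and the genes named among the 49 other histone methylation genes were chosen after their values were seen. Alternatives were a pseudocount of 0.1, no filter, a minimum of 5 FPKM, median-of-ratios scaling and, for the reporter pair, totals without mitochondrially encoded genes. The steps were tested on simulated data and run in Python 3.11.15 with numpy 2.4.6, pandas 2.3.3, scipy 1.17.1 and matplotlib 3.10.9.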

Additional observations from a re-analysis of the deposited data

How the results depend on the processing

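No paired analysis was possible because each group has 1 library, and for the same reason no library could be left out of a comparison. Of 171 counts and medians of members recomputed under another pseudocount, filter or scaling, 158 stayed within limits (1.5 times for a count) and 13 moved. The 86 called gene folds were recomputed too, and of the 173 resulting folds 0 turned in direction. Called folds are 2-fold or more, so a smaller pseudocount or log2 shifts of up to 0.27 could not turn them. Under median-of-ratios scaling 28 of the 86 called folds counted as moved in size. With no filter or a minimum of 5 FPKM all counts and medians stayed within those limits, although the latter left 2 members lower in XEN-like cells against MEFs. A pseudocount of 0.1 gave 1 member lower at stage III day 6 against FBS/KSR, 1 higher and 5 lower in CiPSCs against stage III day 21, 1 lower in OG+ sorted against N2B27 cells, and 1 lower with Opt. VPA. Median-of-ratios scaling gave a median log2 fold of 0.18 for XEN-like cells against MEFs, of 0.031 with 2 members higher for CiPSCs against stage III day 21, and of -0.089 with 1 member lower for CiPSCs against ESCs, and 0 higher and 1 lower with Opt. VPA. Totals without mitochondrially encoded genes, chosen after seeing the data, gave 2 members lower in the reporter pair. Beyond the construction of each setting the cause was not tested. Genes of few reads, Phf19 above all, are limited by depth, and with no replicates the spread between cultures is unknown.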
